A study of Mus musculus with 9 samples.

Results

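Imprinted genes are read mainly from the maternal or mainly from the paternal copy, and 50 of them were followed here in mouse ESCs. A list of well known imprinted genes was taken as given, each with its imprinted cluster and the copy that is usually expressed, and all 50 were found by symbol among the 44788 genes of the deposited table. They lie in 20 clusters, 8 of which have only 1 gene on the list. By usual expression 23 are maternal, 26 are paternal and Gnas uses either copy depending on the transcript. The values do not separate the copies: a change of level can come from either allele, and loss of imprinting was not measured.

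An imprint is laid down in the germ line as DNA methylation, or for a few genes as a repressive histone mark, on the copy that comes from 1 parent. It is then kept through the divisions of the early embryo. A cluster is governed by a control region, often together with a long noncoding RNA that acts on its neighbours in cis. Many imprinted genes control growth of the fetus and the placenta, and mouse ESC lines are known to lose imprints in culture, the maternally expressed RNAs of the Dlk1-Meg3 region among them.

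RNA was sequenced from 3 groups of J1 mouse ESCs, all kept undifferentiated with LIF and without feeder cells or serum. Foxj3-ES and Zbtb18-ES carried a pCDH-Puro lentivirus with the coding sequence of Foxj3 or of Zbtb18, which are a forkhead and a zinc-finger transcription factor. The Control cells were labelled wild type, and an empty vector is not mentioned for them. Each group had 3 libraries of total RNA, run on an Ion Proton. Whether a line was 1 clone or a pool of cells, and whether the 3 libraries of a group came from separate cultures, was not stated, so the p-values speak only of the spread among these 9 libraries, which may be technical. The values are UQRPKM, reads per length of gene with the upper quartile of its library as the scale, and differences are log2 fold changes of UQRPKM + 1, which understate the change of weakly expressed genes. Genes were called at an adjusted p under 0.05 from limma. The fit covered 22268 genes, those that reached 1 UQRPKM in 3 or more libraries. Gene positions are whole genes of GENCODE M21 in GRCm38.

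The RNA of the introduced genes did not stand out in these values. Foxj3 was at 119, 168 and 177 UQRPKM in Foxj3-ES, against 124, 145 and 115 in Control (log2 fold change 0.26 ± 0.18 (SE), adjusted p = 0.388 in limma). Zbtb18 was at 34.9, 129 and 57.0 UQRPKM in Zbtb18-ES, against 46.4, 65.4 and 49.0 in Control (log2 fold change 0.26 ± 0.39 (SE), adjusted p = 0.715 in limma). Only replicate 2 of Zbtb18-ES lay above all Control libraries for Zbtb18, and replicate 1 lay below all of them, so the lines are named here as they were labelled. From the steps between low values, the libraries held an estimated 10890000 to 15330000 reads, and 1 read in a transcript of 1000 bases was worth 0.855 to 1.33 UQRPKM. This estimate is uncertain by a factor of 2, since some low values lay at 0.5 of that step. The libraries of a group correlated at 0.954 to 0.977 over the tested genes. Relative to the mean of all libraries, the 10% of coding genes richest in GC exceeded the poorest 10% by a log2 difference of 0.91 in Control replicate 2, against -0.49 to 0.17 in the other 8 libraries. Of the 8 ESC markers looked up, Sox2, Nanog and Esrrb fell in Foxj3-ES, while Nanog and Utf1 fell and Dppa5a rose in Zbtb18-ES. In Zbtb18-ES, Sox2 (1168 to 1264 UQRPKM, against 1521 to 2246 in Control) and Esrrb (881 to 1518, against 1667 to 2429) lay below Control without overlap. Neither was called there. The log2 fold change was negative for 6 of the 8 in Foxj3-ES and 5 of the 8 in Zbtb18-ES, with medians of -0.26 and -0.31. Pou5f1 of this list was at 17824.6, 17715.8 and 18267.6 UQRPKM in Foxj3-ES, at 17974.6, 16904.2 and 20887.2 in Zbtb18-ES, and at 13658.5, 14114.6 and 13277.3 in Control, so that both lines lay above Control without overlap, and neither difference was called (log2 fold changes 0.39 and 0.44, adjusted p = 0.144 and 0.116 in limma). The summed UQRPKM of the 8 was 42785 to 46074 in Foxj3-ES, 47350 to 63433 in Zbtb18-ES and 38696 to 42071 in Control. By group mean, Pou5f1 and Dppa5a weigh most in this sum, so it does not describe the other markers. Dppa5a averaged 13627 UQRPKM in Foxj3-ES, 23863 in Zbtb18-ES and 9851 in Control. The summed UQRPKM of 8 fibroblast markers was 155 to 237 in Foxj3-ES, 68.6 to 102 in Zbtb18-ES and 155 to 174 in Control, with 3 of the 8 under 1 in every library and Lum at 0. Thy1 of this list fell in Zbtb18-ES, and it made up most of the sum in every library. For 8 trophoblast markers the sum was 193 to 225 in Foxj3-ES, 124 to 236 in Zbtb18-ES and 194 to 297 in Control, with Tpbpa at 0, and Eomes fell in Foxj3-ES. For 8 primitive endoderm markers it was 14.4 to 21.1 in Foxj3-ES, 13 to 20.6 in Zbtb18-ES and 25.6 to 27.3 in Control, with Ttr at 0 and none called. The part of these differences in the results on imprinted genes was not tested. In bulk RNA, fewer cells of a type and less RNA per cell cannot be told apart.

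The promoters of 5 genes on which the results turn are shown first, since all 5 genes differ in level between the groups or between libraries of 1 line. CpG sites are the usual place of DNA methylation. Whether any of these windows lies in a control region that carries an imprint was not looked up. Each run is the 200 bases before a RefSeq start in GRCm38.p6, 5′ to 3′ on the strand of the gene, and capitals mark the CpG dinucleotides. Magel2 and Peg12 lie close together on chromosome 7. Dlk1 and Meg3 are oppositely imprinted neighbours on chromosome 12, and Slc38a4 lies on chromosome 15.
Magel2: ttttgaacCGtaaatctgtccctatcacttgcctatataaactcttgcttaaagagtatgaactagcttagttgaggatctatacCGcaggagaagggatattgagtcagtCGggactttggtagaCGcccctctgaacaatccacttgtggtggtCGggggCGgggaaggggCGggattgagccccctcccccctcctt
Peg12: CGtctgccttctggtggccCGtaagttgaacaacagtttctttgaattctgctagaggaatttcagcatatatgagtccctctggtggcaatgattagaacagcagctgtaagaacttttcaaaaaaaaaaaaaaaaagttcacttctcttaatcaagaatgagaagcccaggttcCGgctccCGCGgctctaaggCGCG
Dlk1: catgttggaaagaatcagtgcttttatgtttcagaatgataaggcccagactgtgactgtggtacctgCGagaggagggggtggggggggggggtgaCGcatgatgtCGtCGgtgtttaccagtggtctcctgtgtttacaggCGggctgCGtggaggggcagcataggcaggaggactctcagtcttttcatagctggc
Meg3: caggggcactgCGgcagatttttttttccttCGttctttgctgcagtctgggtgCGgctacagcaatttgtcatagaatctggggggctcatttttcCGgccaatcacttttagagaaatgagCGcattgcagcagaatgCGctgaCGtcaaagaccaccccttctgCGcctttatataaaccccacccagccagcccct
Slc38a4: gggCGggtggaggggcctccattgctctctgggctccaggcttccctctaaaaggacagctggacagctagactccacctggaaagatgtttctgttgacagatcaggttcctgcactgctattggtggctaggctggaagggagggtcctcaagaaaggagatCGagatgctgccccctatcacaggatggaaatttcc
The windows are chr7:62376779-62376978 (+) for Magel2 and chr7:62464511-62464710 (-) for Peg12. They are chr12:109452623-109452822 (+) for Dlk1, chr12:109540796-109540995 (+) for Meg3 and chr15:97055957-97056156 (-) for Slc38a4. Meg3 and Slc38a4 have further RefSeq starts, and the outermost is shown for each. The windows hold 7 CpG sites for Magel2, 7 for Peg12, 6 for Dlk1, 8 for Meg3 and 2 for Slc38a4, against a median of 5 and quartiles of 2 and 13 over the 32851 promoters of the RefSeq table. The 61 promoters of the 40 imprinted genes in that table had a median of 8. ZFP57, a zinc-finger protein that guards imprints, binds methylated TGCCGC. These letters, on either strand and with no overlap counted, occur 1 time in the Meg3 window, as GCGGCA near its 5′ end, and in none of the other 4. They occur in 11.5% of the windows of imprinted genes and in 7.4% of all windows. The other windows with a match belong to Zdbf2, Mest, Copg2, Zim1 and Plagl1. A match is only a description of the letters, and methylation was not measured.

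Levels differed widely among the 50 genes. In Control, 20 of the 50 genes averaged at least 100 UQRPKM, 13 averaged 10 to 100, 10 averaged 1 to 10 and 7 were under 1. Cd81, a tetraspanin of the Kcnq1-Cdkn1c cluster, was the highest at 1436 ± 207 UQRPKM (SD, n = 3), above Phlda2 (683 ± 136) and Commd1 (681 ± 81.2), which did not differ from each other beyond their spread. Mest, a paternally expressed hydrolase-fold protein, and Rian, a long noncoding RNA, came next at 566 ± 32.7 and 521 ± 34.4. Slc22a3 and Kcnk9 were listed at 0 in every library. Airn, Slc22a3, Rtl1, Usp29, Peg13, Kcnk9 and Rasgrf1 did not pass the filter, which left 43 genes with a test. Peg13, a paternal noncoding RNA inside Trappc9, was at 12.4 UQRPKM in Foxj3-ES replicate 1 and under 1 in the other 8 libraries.

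**Figure D1:**
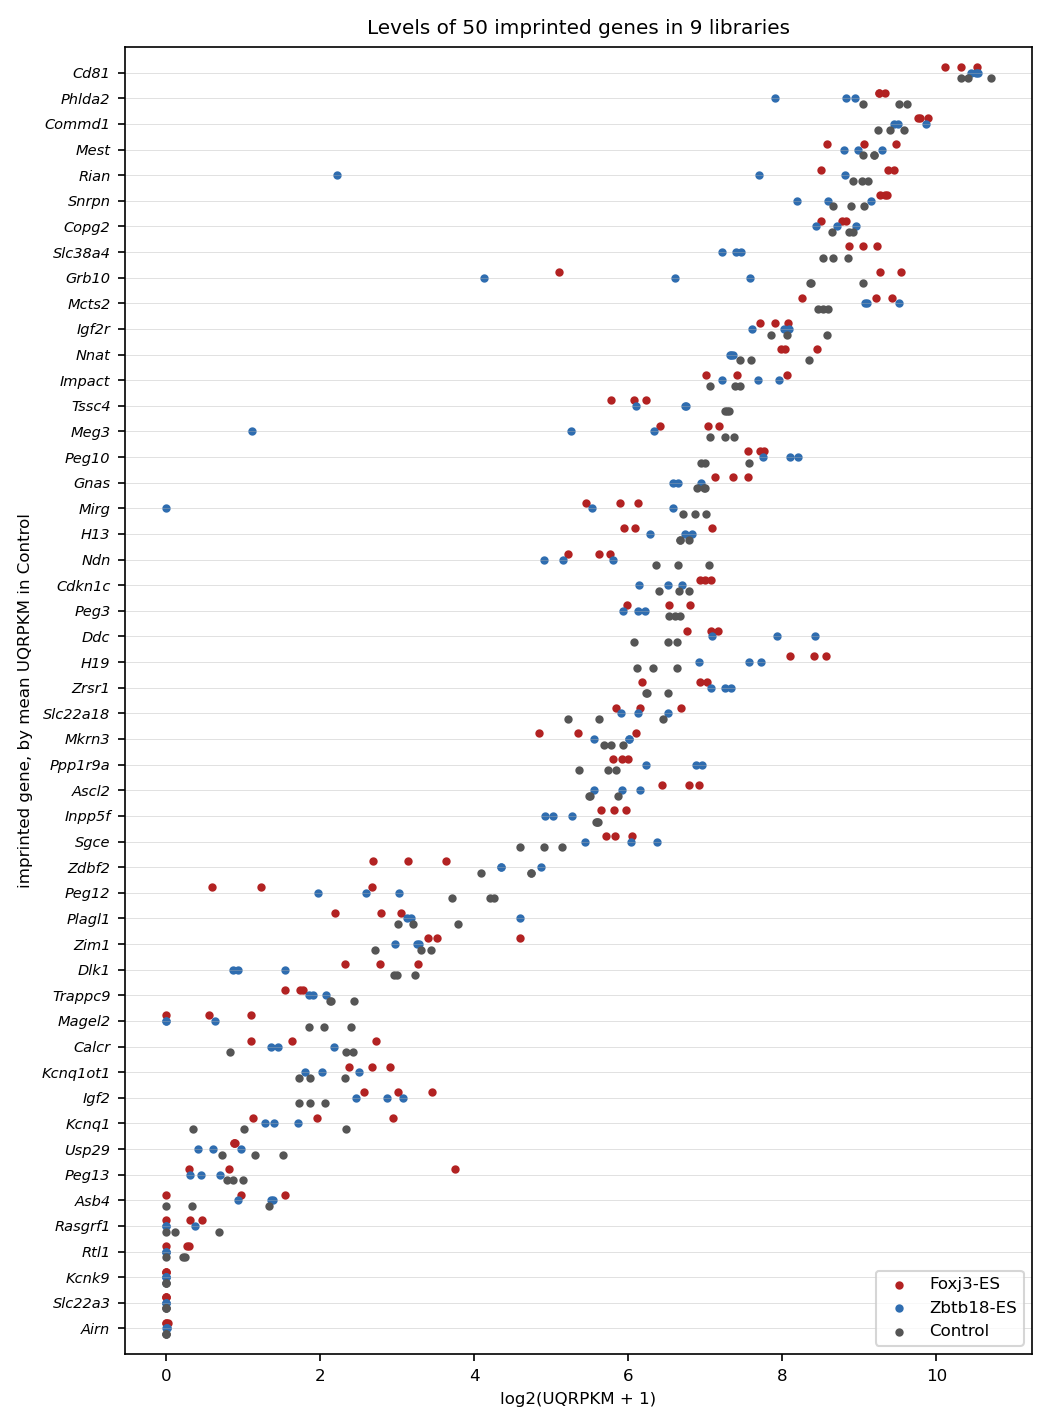
Level of each of the 50 imprinted genes in every library, as log2(UQRPKM + 1) on the horizontal axis, with the genes ordered by their mean in Control. Each point is 1 library of Foxj3-ES (red), Zbtb18-ES (blue) or Control (grey), and Rian, Meg3 and Mirg of Zbtb18-ES replicate 1 lie far to the left of the other points of their rows.

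Against Control, 8 of the 43 tested genes (18.6%) were called in Foxj3-ES and 11 (25.6%) in Zbtb18-ES. Over all 22268 genes tested the shares were 14.6% in Foxj3-ES and 11.8% for Zbtb18-ES. In Foxj3-ES 3 imprinted genes rose (H19, Sgce and Ascl2), against a background of 7.54% of all genes, and 5 fell (Ndn, Magel2, Peg12, Tssc4 and Zdbf2), against 7.01%. In Zbtb18-ES 6 rose (H19, Peg10, Sgce, Ppp1r9a, Ddc and Zrsr1), against 5.31%, and 5 fell (Dlk1, Ndn, Magel2, Tssc4 and Slc38a4), against 6.5%. Between the lines, Slc38a4 alone was called, with the lower values in Zbtb18-ES, and in that comparison 0.687% of all genes were called and 0.359% were lower. In all, 14 genes were called in at least 1 line and 5 in both, H19, Sgce, Ndn, Magel2 and Tssc4, and both comparisons use the same Control libraries. Magel2 passed the filter only through Control, where it was high, and 1 Foxj3-ES library, so the filter favoured a fall of this gene. The balance of directions moved with the scaling. With GC and length corrected, the calls were 8 upward and 4 downward for Foxj3-ES, and 7 upward and 3 downward for Zbtb18-ES. With the libraries rescaled to the same sum, they were 2 upward and 7 downward for Foxj3-ES, and 5 upward and 7 downward for Zbtb18-ES. Under that rescaling the median log2 fold change over all genes was itself -0.35 in Foxj3-ES and -0.16 in Zbtb18-ES. Without further scaling, the median log2 fold change of the 43 genes was 0.20 in Foxj3-ES, beside -0.03 over all genes, and -0.11 in Zbtb18-ES, beside -0.02. Calls moved with single libraries too. The shares of all genes called under each scaling, or with a library left out, were not counted. The share of all genes whose groups do not overlap was not counted either. A lack of overlap, given for single genes, is therefore only a description. Without replicate 1 or replicate 3 of Control, 4 genes were called in Foxj3-ES, and without its own replicate 2 or replicate 3, 5 were. In Zbtb18-ES 2 genes (Dlk1 and Slc38a4) were called without its replicate 3, 7 without its replicate 1, and 4, 7 or 5 without Control replicate 1, 2 or 3. H19, Peg12, Ascl2 and Tssc4 in Foxj3-ES, and Dlk1 and Slc38a4 in Zbtb18-ES, were called with any 1 of the 9 libraries left out.

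The calls were also counted by the usual parent of origin. For some genes, such as Ppp1r9a, Ddc and Slc38a4, that copy is known from other tissues, and expression from 1 copy was not measured in these cells. Of the 21 tested maternally expressed genes, 2 rose and 1 fell in Foxj3-ES, and 2 rose and 1 fell in Zbtb18-ES. Of the 21 tested paternally expressed genes, 1 rose and 4 fell in Foxj3-ES, and 4 rose and 4 fell in Zbtb18-ES. The median log2 fold change was -0.05 for maternal and 0.22 for paternal genes in Foxj3-ES, and -0.11 for maternal and 0.00 for paternal genes in Zbtb18-ES. Called in either direction were 14.3% of the maternal genes in each line, and 23.8% of the paternal genes in Foxj3-ES and 38.1% for Zbtb18-ES, beside 14.6% and 11.8% over all genes in those lines. Whether the shares differ between the alleles was not tested.

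**Figure D2:**
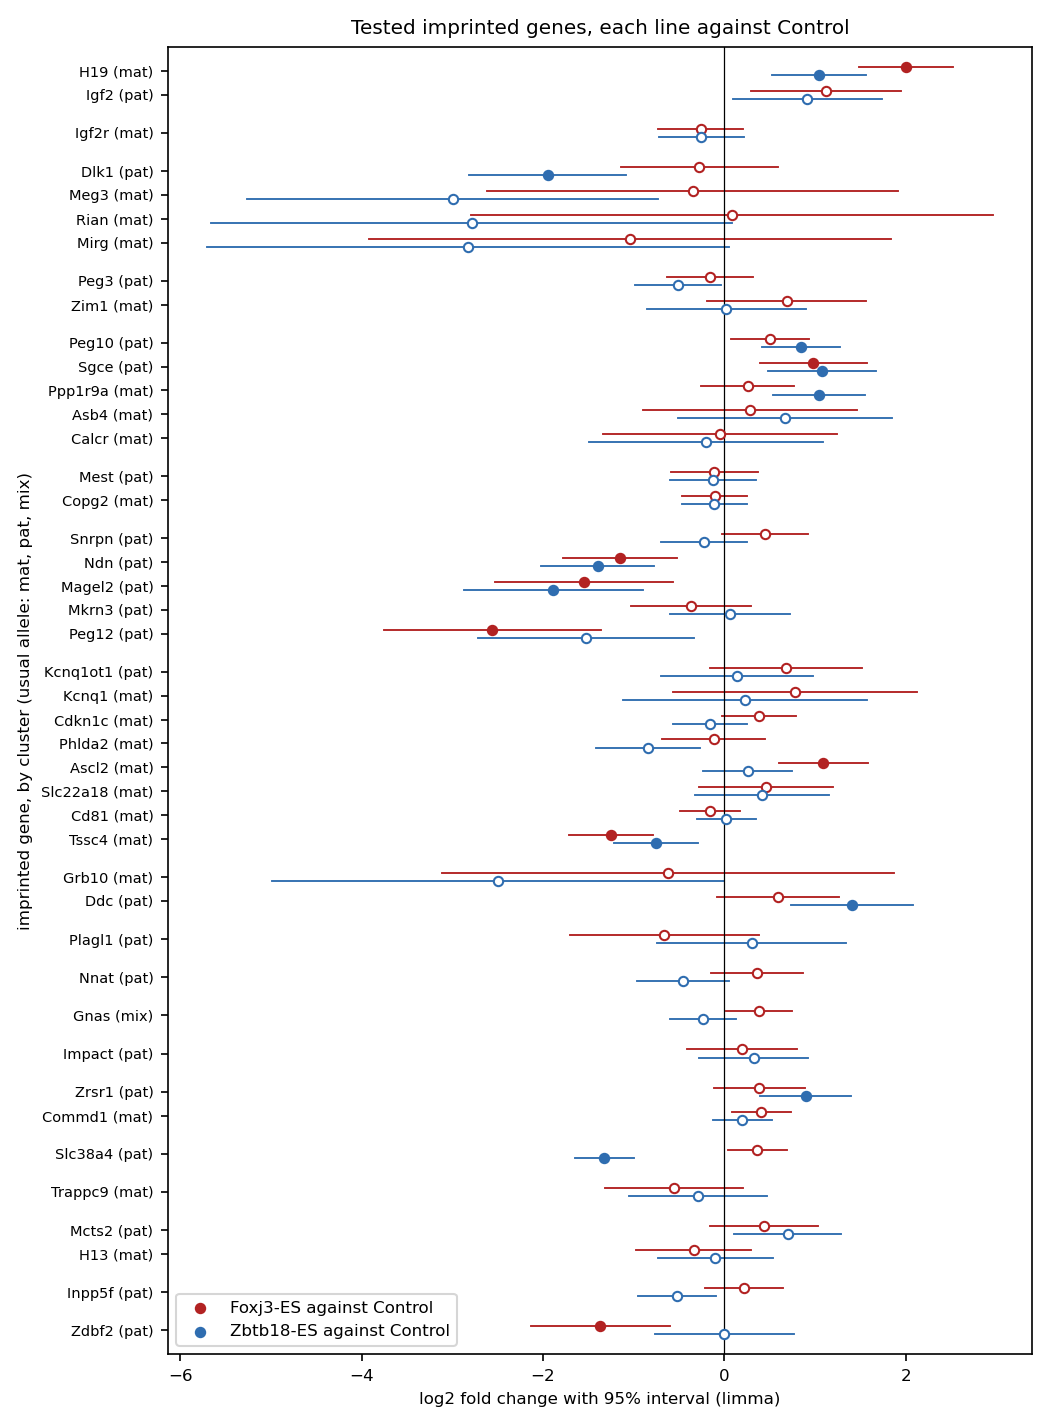
Log2 fold change of each of the 43 tested imprinted genes, by cluster, in Foxj3-ES (red) and Zbtb18-ES (blue) against Control, with the 95% interval from limma as a bar. Filled points have an adjusted p under 0.05, and letters in brackets give the usually expressed copy; H19 lies to the right of 0 and Ndn and Magel2 to the left of 0 in both lines, while Meg3, Rian, Mirg and Grb10 have the widest intervals.

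In the Igf2-H19 cluster the noncoding RNA rose in both lines. H19 at chr7:142575529-142578143 (-), a maternally expressed long noncoding RNA that is abundant in fetal tissue, was at 274, 379 and 338 UQRPKM in Foxj3-ES, at 188, 120 and 211 in Zbtb18-ES, and at 79.0, 98.4 and 68.2 in Control. Every library of either line lay above every Control library. The log2 fold change was 2.0 ± 0.23 (SE, adjusted p = 0.00117) in Foxj3-ES and 1.04 ± 0.23 (SE, adjusted p = 0.0198) in Zbtb18-ES, both from limma. In Zbtb18-ES the call ended when replicate 1 or 3 of Zbtb18-ES or of Control was left out (adjusted p = 0.0580 to 0.0732). Between the lines H19 was lower in Zbtb18-ES by a log2 difference of -0.96 that missed the threshold (adjusted p = 0.0927 in limma). Igf2, a paternally expressed growth factor that competes with H19 for the same enhancers, was at 4.93, 7.04 and 9.91 UQRPKM in Foxj3-ES, at 4.52, 6.32 and 7.39 in Zbtb18-ES, and at 2.30, 2.65 and 3.19 in Control. Both lines lay above Control without overlap, yet neither difference was called, at log2 fold changes of 1.12 for Foxj3-ES (adjusted p = 0.0707) and 0.92 for Zbtb18-ES (adjusted p = 0.139), both from limma. Without the trend of the spread or with GC and length corrected, Igf2 was called in Foxj3-ES (adjusted p = 0.0351 and 0.0296 in limma). Igf2r, which clears Igf2 from the cell surface and is maternally expressed, was at 269, 209 and 239 UQRPKM in Foxj3-ES, at 193, 272 and 260 in Zbtb18-ES, and at 265, 380 and 229 in Control, and the groups overlapped. Rescaled to the same sum, Igf2r was called lower in Foxj3-ES (log2 fold change -0.61, adjusted p = 0.0483 in limma), and under that scaling the median of all genes was -0.35. Its antisense RNA Airn did not exceed 0.0125 UQRPKM in any library.

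In the Kcnq1-Cdkn1c cluster, next to Igf2-H19 on chromosome 7, Ascl2 rose in Foxj3-ES and Tssc4 fell in both lines. Ascl2 at chr7:142966829-142969264 (-), a transcription factor that the trophoblast needs, was at 85.3, 119 and 110 UQRPKM in Foxj3-ES, at 70.1, 45.9 and 59.7 in Zbtb18-ES, and at 44.1, 57.1 and 44.3 in Control. All Foxj3-ES libraries lay above Control (log2 fold change 1.09 ± 0.22 (SE), adjusted p = 0.0111 in limma), while Zbtb18-ES overlapped with it (0.26 ± 0.22 (SE), adjusted p = 0.496 in limma). The difference between the lines was not called (log2 difference -0.84, adjusted p = 0.113 in limma). With GC and length corrected, Ascl2 was called higher in Zbtb18-ES as well (log2 fold change 0.89, adjusted p = 0.0156 in limma). Tssc4 at chr7:143069249-143071093 (+), known from human cells as a factor in the assembly of spliceosomal particles, was at 53.7, 66.4 and 74.3 UQRPKM in Foxj3-ES, at 67.3, 105 and 107 in Zbtb18-ES, and at 154, 152 and 158 in Control. It was low in every library of both lines, and the Control libraries were nearly equal. The log2 fold change was -1.25 ± 0.21 (SE, adjusted p = 0.00507) in Foxj3-ES and -0.76 ± 0.21 (SE, adjusted p = 0.0425) in Zbtb18-ES, both from limma. The call in Zbtb18-ES was close to the threshold, and it ended with each of the 9 libraries left out but Foxj3-ES replicate 1 (adjusted p = 0.0505 to 0.116) and with GC and length corrected (adjusted p = 0.182), all from limma. It also ended without a filter, with quantile normalization, with only the 2 groups in the fit and without the trend of the spread (adjusted p = 0.0570 to 0.0738 in limma).

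The other 6 genes of this cluster were not called. Cdkn1c, an inhibitor of cyclin-dependent kinases, was at 126, 134 and 121 UQRPKM in Foxj3-ES, at 69.7, 103 and 90.7 in Zbtb18-ES, and at 83.5, 109 and 100 in Control. Foxj3-ES lay just above Control and was called only once GC and length were corrected (log2 fold change 0.80, adjusted p = 0.0166 in limma), against 0.38 and adjusted p = 0.192 without it. Phlda2, which restrains growth of the placenta, was at 642, 608 and 612 UQRPKM in Foxj3-ES, at 238, 492 and 453 in Zbtb18-ES, and at 732, 530 and 788 in Control. Zbtb18-ES lay below Control without overlap, with a log2 fold change of -0.84 ± 0.26 (SE) and an adjusted p = 0.0600 in limma. It was called without Zbtb18-ES replicate 2 (adjusted p = 0.0463) and with libraries rescaled to the same sum (adjusted p = 0.0370). Kcnq1ot1, the paternal noncoding RNA that silences the cluster in cis, was low everywhere, at 6.46, 5.39 and 4.20 UQRPKM in Foxj3-ES, at 2.49, 3.07 and 4.65 in Zbtb18-ES, and at 3.99, 2.32 and 2.63 in Control. It lies within the span of Kcnq1 on the opposite strand. Since the use of strand in counting is not given, some reads of the shared stretch may have been counted for the other gene. Slc22a18 ranged from 36.3 to 102 UQRPKM and Cd81 from 1103 to 1670, and both genes overlapped with Control in each line. Rescaled to the same sum, Cd81 was called lower in Foxj3-ES (log2 fold change -0.51, adjusted p = 0.0237 in limma), and Kcnq1 varied between 0.277 and 6.70 UQRPKM over the 9 libraries.

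**Figure D3:**
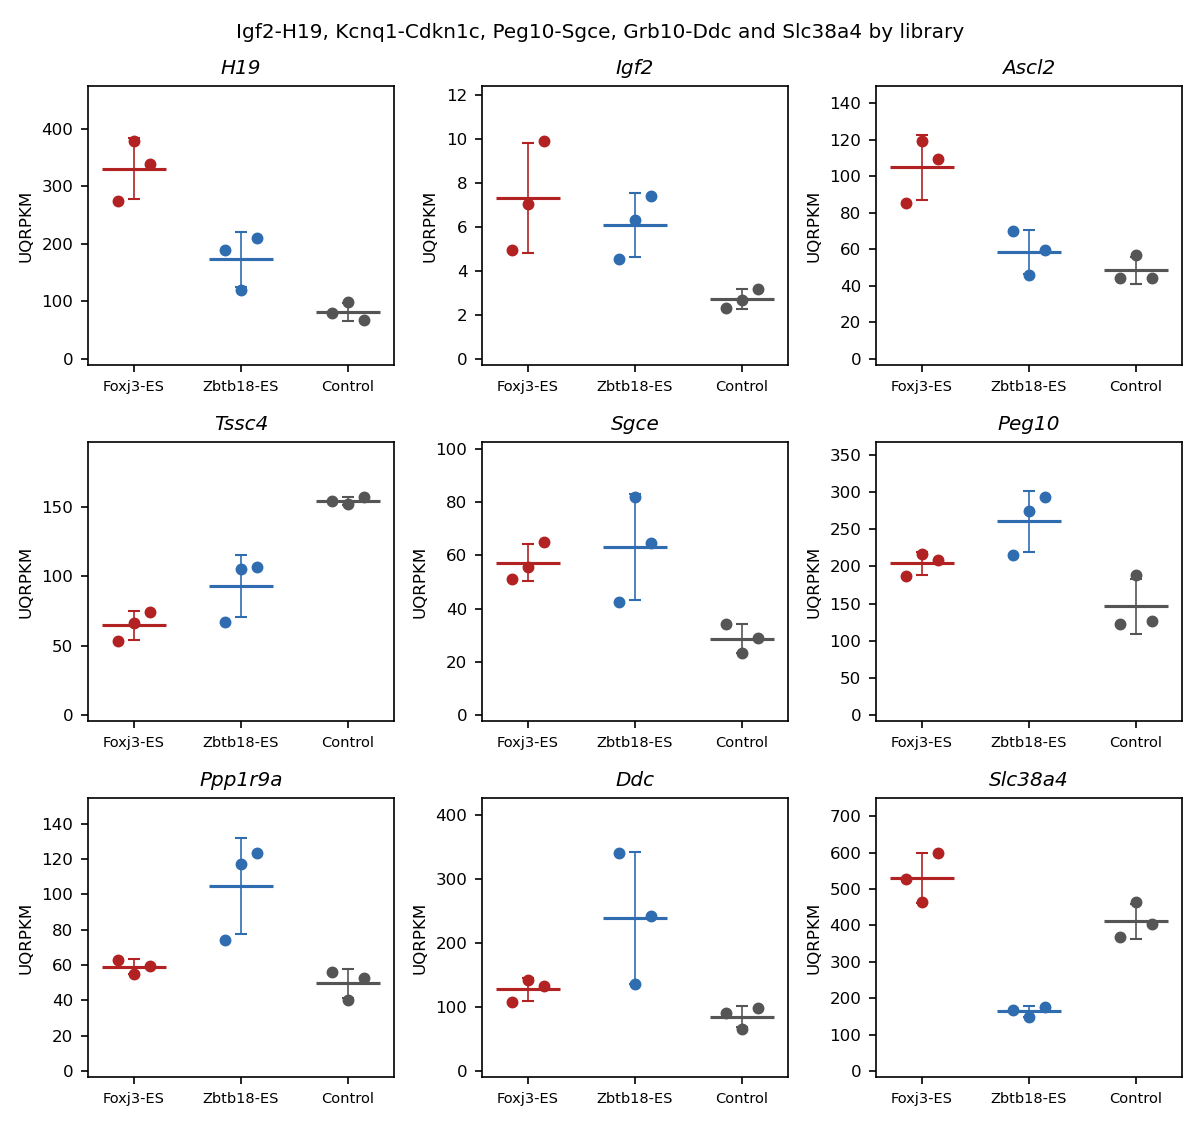
UQRPKM in each library for 9 imprinted genes called in at least 1 line or next to such a gene, with 1 panel a gene and axes that include 0. Points are libraries, lines are group means and bars the SD of 3 libraries; H19 and Sgce lie above Control and Tssc4 below it in both lines, and Slc38a4 of Zbtb18-ES lies below both other groups.

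The paternally expressed genes of the Snrpn-Ndn cluster, which corresponds to the Prader-Willi region in human, were split. Ndn, Magel2 and Peg12 fell in Foxj3-ES, Ndn and Magel2 fell in Zbtb18-ES, and Snrpn and Mkrn3 were not called in either line. Ndn at chr7:62346569-62350262 (+), a MAGE-family protein that restrains growth in neurons, was at 53.3, 36.0 and 48.0 UQRPKM in Foxj3-ES, at 34.5, 54.8 and 28.9 in Zbtb18-ES, and at 132, 81.1 and 98.6 in Control. The lowest Control library was above the highest library of either line. The log2 fold change was -1.15 ± 0.28 (SE, adjusted p = 0.0240) in Foxj3-ES and -1.40 ± 0.28 (SE, adjusted p = 0.0142) in Zbtb18-ES, both from limma. In Foxj3-ES the call ended without replicate 2 or 3 of Foxj3-ES or replicate 1 or 3 of Control (adjusted p = 0.0507 to 0.0926), and in Zbtb18-ES without its replicate 3 or Control replicate 1 (adjusted p = 0.0518 and 0.0535). Magel2 at chr7:62377010-62381640 (+), also of the MAGE family and a regulator of endosomal sorting, was at 1.14, 0 and 0.466 UQRPKM in Foxj3-ES, at 0, 0.55 and 0 in Zbtb18-ES, and at 2.61, 3.15 and 4.25 in Control. These are values of few reads, and the gene passed the filter only through the Control libraries and 1 Foxj3-ES library. The log2 fold change on the log2(UQRPKM + 1) scale was -1.55 ± 0.44 (SE, adjusted p = 0.0428) in Foxj3-ES and -1.89 ± 0.44 (SE, adjusted p = 0.0243) in Zbtb18-ES, both from limma. The Foxj3-ES call ended with any library left out except Foxj3-ES replicate 1 and Zbtb18-ES replicate 2 (adjusted p = 0.0538 to 0.135) with GC and length corrected (adjusted p = 0.103), and with a pseudocount of 0.25 (adjusted p = 0.0889), quantile normalization (adjusted p = 0.0568) or only the 2 groups in the fit (adjusted p = 0.0628). The Zbtb18-ES call ended without any 1 Control library or Zbtb18-ES replicate 1 or 3 (adjusted p = 0.0560 to 0.0835) and with that correction (adjusted p = 0.0613).

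Peg12 at chr7:62461871-62464510 (-), a member of the FRAT family that binds the kinase GSK3, was at 0.505, 1.35 and 5.35 UQRPKM in Foxj3-ES, at 2.93, 7.12 and 5.05 in Zbtb18-ES, and at 18.1, 17.4 and 12.1 in Control. All 6 libraries of the lines were below Control, and the lowest Foxj3-ES values rest on few reads. The log2 fold change was -2.56 ± 0.54 (SE, adjusted p = 0.0129) in Foxj3-ES, and in Zbtb18-ES it was -1.52 ± 0.54 (SE, adjusted p = 0.0955), both from limma. With a pseudocount of 5, with only the 2 groups in the fit or without Foxj3-ES replicate 3 the Zbtb18-ES difference was called too (adjusted p = 0.0368, 0.0447 and 0.0461 in limma). Frat1, a relative of Peg12 outside the imprinted clusters, fell in Foxj3-ES (log2 fold change -1.82, adjusted p = 0.0113) and in Zbtb18-ES (-1.43, adjusted p = 0.0337), and Frat2 was not called in either line. Snrpn, a protein of spliceosomal particles and the gene at the imprinting centre, was at 645, 614 and 653 UQRPKM in Foxj3-ES, at 292, 565 and 385 in Zbtb18-ES, and at 402, 533 and 474 in Control. Foxj3-ES lay above Control without a call (log2 fold change 0.45, adjusted p = 0.192 in limma), in the direction opposite to Ndn, and it was not called under any scaling tried. Snurf, which shares its transcript with Snrpn, had 1.05 times the value of Snrpn in every library, so the 2 genes are not separate measurements. Mkrn3, a ubiquitin ligase that holds back puberty in human, ranged from 27.7 to 67.3 UQRPKM in Foxj3-ES and from 45.9 to 63.4 in Zbtb18-ES, against 50.4 to 59.9 in Control.

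**Figure D4:**
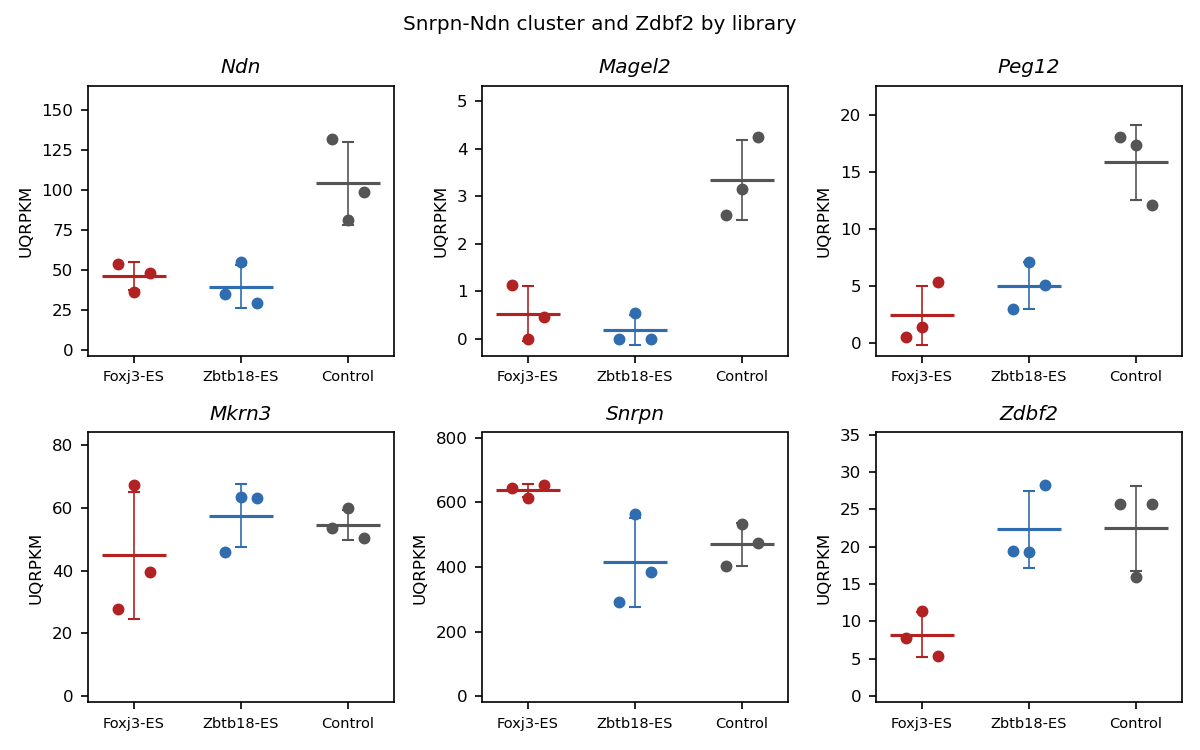
UQRPKM in each library for the 5 genes of the Snrpn-Ndn cluster and for Zdbf2, with 1 panel a gene and axes that include 0. Points are libraries, lines are group means and bars the SD of 3 libraries; for Ndn, Magel2 and Peg12 every Control library lies above both lines, while Mkrn3 overlaps between all groups.

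In the Dlk1-Meg3 region Dlk1 fell in Zbtb18-ES, and the maternally expressed RNAs differed widely among the 3 Zbtb18-ES libraries. Dlk1 at chr12:109452823-109463336 (+), a membrane protein related to Notch ligands and paternally expressed, was at 0.826, 0.913 and 1.90 UQRPKM in Zbtb18-ES, against 6.79, 8.36 and 7.001 in Control. These Zbtb18-ES values rest on few reads. The log2 fold change was -1.95 ± 0.39 (SE, adjusted p = 0.0137 in limma). In Foxj3-ES Dlk1 was at 3.99, 5.85 and 8.60 UQRPKM, which overlapped with Control (log2 fold change -0.28, adjusted p = 0.683 in limma). The difference between the lines was -1.67 in log2 and missed the threshold (adjusted p = 0.0839 in limma). Dio3, the deiodinase that inactivates thyroid hormone at the far end of the region and which was not on the list, was at 19.1, 6.86 and 12.5 UQRPKM in Zbtb18-ES, against 57.5, 42.9 and 49.4 in Control, and it fell as well (log2 fold change -1.97 ± 0.48 (SE), adjusted p = 0.0280 in limma). In Foxj3-ES it ranged from 14.7 to 59.9 UQRPKM.

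Meg3, Rian and Mirg are long noncoding RNAs read from the maternal copy between Dlk1 and Dio3, and they host many snoRNAs and microRNAs. Meg3 at chr12:109541001-109571726 (+) was at 1.16, 79.3 and 37.1 UQRPKM in Zbtb18-ES replicates 1, 2 and 3, against 164, 132 and 152 in Control. Rian was at 3.64, 447 and 206 UQRPKM in the same Zbtb18-ES replicates, against 525, 553 and 485 in Control. Mirg was at 0, 94.3 and 45.3 UQRPKM in them, against 128, 116 and 103 in Control. For all 3 RNAs replicate 1 was the lowest, replicate 3 was between the others and replicate 2 was the highest, and none of the 3 libraries reached the lowest Control library. In replicate 1 Meg3 and Rian were at 0.776% and 0.699% of the Control mean, in replicate 2 at 53.1% and 85.9%, and in replicate 3 at 24.8% and 39.5%. The 65 rows of the table for small RNAs between Dlk1 and Dio3 summed to 18.1, 899 and 767 UQRPKM in Zbtb18-ES replicates 1, 2 and 3, against 2096, 1216 and 1465 in Control. These sums may hold reads of the long RNAs that contain them.

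None of the 3 RNAs was called. The log2 fold changes in Zbtb18-ES were -3.00 ± 1.02 (SE, adjusted p = 0.0851) for Meg3, -2.79 ± 1.29 (SE, adjusted p = 0.192) for Rian and -2.82 ± 1.29 (SE, adjusted p = 0.186) for Mirg, all from limma. Without Zbtb18-ES replicate 1, Meg3 was called with a smaller change (-1.44, adjusted p = 0.0390), and Rian (-0.78, adjusted p = 0.220) and Mirg (-0.81, adjusted p = 0.166) were not. Without Zbtb18-ES replicate 2, Meg3 was called too (-4.05, adjusted p = 0.0332). Within Zbtb18-ES the SD of the log2 values was 2.75 for Meg3, 3.53 for Rian and 3.53 for Mirg, above at least 99.5% of the 15451 genes with a mean of at least 10 UQRPKM, whose median SD was 0.232. In Control the SD was 0.0957 to 0.159 for the 3 RNAs. Zbtb18-ES replicate 1 was also the library with the least Zbtb18 in its group, at 34.9 UQRPKM. The Foxj3-ES libraries were near it, at 38.2, 40.8 and 36.5 UQRPKM of Zbtb18, and a link to the 3 RNAs was not tested. Over all tested genes, Zbtb18-ES replicate 1 correlated at 0.958 and 0.961 with the other 2 of its line.

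In Foxj3-ES these RNAs were present in every library. Meg3 was at 144, 130 and 84.5 UQRPKM, against 164, 132 and 152 in Control, and Rian was at 662, 701 and 361, against 525, 553 and 485 in Control. Mirg was at 68.7, 58.6 and 42.6 UQRPKM in Foxj3-ES, against 128, 116 and 103 in Control. Mirg lay below Control without overlap at a log2 fold change of -1.04 ± 1.29 (SE), which was not called (adjusted p = 0.640 in limma) in the fit that takes its spread from all 3 groups. With only Foxj3-ES and Control in the fit Mirg was called (adjusted p = 0.0254 in limma), and it was also called without Zbtb18-ES replicate 1 (adjusted p = 0.0443 in limma).

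Grb10 also varied within the lines, with an SD of the log2 values of 2.49 in Foxj3-ES, 1.78 in Zbtb18-ES and 0.396 in Control. This adaptor protein, encoded at chr11:11930508-12038683 (-), damps insulin signalling and is maternally expressed outside the brain. It was at 33.4, 743 and 618 UQRPKM in Foxj3-ES, at 191, 16.4 and 96.3 in Zbtb18-ES, and at 328, 530 and 331 in Control. Replicate 1 of Foxj3-ES was at 8.42% of the Control mean, while replicates 2 and 3 were above all Control libraries. All Zbtb18-ES libraries were below Control, the lowest being replicate 2, at 4.14% of the Control mean, and not replicate 1, which was lowest for Meg3. The log2 fold changes of Grb10 were -0.62 ± 1.12 in Foxj3-ES (SE, adjusted p = 0.760) and -2.49 ± 1.12 for Zbtb18-ES (SE, adjusted p = 0.179), both from limma, and without Foxj3-ES replicate 1 the value in Foxj3-ES was 0.81 (adjusted p = 0.573). Its neighbour Ddc at chr11:11814101-11898144 (-), which makes dopamine and serotonin from their precursors and is paternally expressed in the heart, was at 342, 135 and 242 UQRPKM in Zbtb18-ES, against 90.7, 66.1 and 98.0 in Control. All 3 libraries were above Control (log2 fold change 1.41 ± 0.30 (SE), adjusted p = 0.0175 in limma), and the call ended without replicate 1 or 3 of Zbtb18-ES or replicate 2 of Control (adjusted p = 0.0505 to 0.0604). In Foxj3-ES Ddc was at 107, 142 and 133 UQRPKM, above Control without a call (log2 fold change 0.59, adjusted p = 0.223 in limma).

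**Figure D5:**
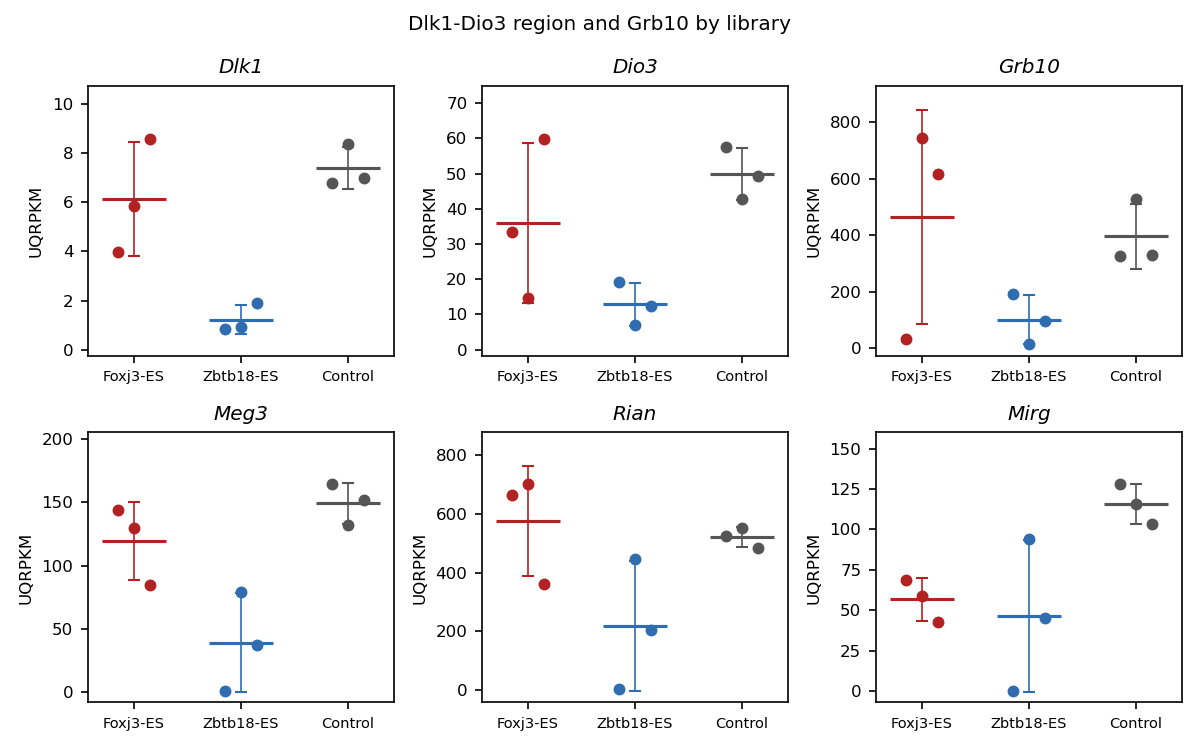
UQRPKM in each library for Dlk1, Dio3, Meg3, Rian and Mirg of the Dlk1-Dio3 region and for Grb10, with 1 panel a gene and axes that include 0. Points are libraries in the order of replicates 1, 2 and 3, lines are group means and bars the SD of 3 libraries; Meg3, Rian and Mirg of Zbtb18-ES replicate 1 lie at or near 0, and for Grb10 replicate 1 of Foxj3-ES and replicate 2 of Zbtb18-ES are the lowest of their groups.

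In the Peg10-Sgce cluster on chromosome 6, 3 of the 5 listed genes rose in Zbtb18-ES and 1 of the 5, Sgce, rose in Foxj3-ES. Over all tested genes, 5.31% rose in Zbtb18-ES and 7.54% in Foxj3-ES. Peg10 at chr6:4747306-4760517 (+), a protein derived from a retrotransposon and needed for the placenta, was at 215, 274 and 294 UQRPKM in Zbtb18-ES, against 122, 189 and 127 in Control (log2 fold change 0.85 ± 0.19 (SE), adjusted p = 0.0216 in limma). Sgce at chr6:4674350-4747207 (-), the epsilon-sarcoglycan, starts 99 bases from Peg10 in the opposite direction, and both are paternally expressed. It was at 51.2, 55.5 and 65.0 UQRPKM in Foxj3-ES, at 42.4, 82.1 and 64.6 in Zbtb18-ES, and at 34.1, 23.1 and 28.9 in Control. Every library of the lines was above Control, with log2 fold changes of 0.98 ± 0.27 (SE, adjusted p = 0.0354) in Foxj3-ES and 1.08 ± 0.27 (SE, adjusted p = 0.0292) in Zbtb18-ES, both from limma. Ppp1r9a at chr6:4902917-5165661 (+), an actin-binding protein of synapses that is maternally expressed in the placenta, was at 73.8, 117 and 124 UQRPKM in Zbtb18-ES, against 56.1, 40.2 and 52.3 in Control (log2 fold change 1.04 ± 0.23 (SE), adjusted p = 0.0191 in limma). In Foxj3-ES Peg10 was at 187, 217 and 209 UQRPKM and Ppp1r9a at 62.9, 54.8 and 59.3, and neither was called, though Peg10 was once GC and length were corrected (adjusted p = 0.0353) and without Control replicate 2 (adjusted p = 0.0227), both from limma. Asb4 and Calcr were under 6 UQRPKM in every library.

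Each call in this cluster ended in more than 1 of the fits with a library left out. Peg10 in Zbtb18-ES lost its call without replicate 2 or 3 of Zbtb18-ES or replicate 1 or 3 of Control (adjusted p = 0.0585 to 0.0796) or without the trend of the spread (adjusted p = 0.0533), and Ppp1r9a without replicate 2 or 3 of Zbtb18-ES (adjusted p = 0.0573 and 0.0754). Sgce lost it in Foxj3-ES with any 1 of the Foxj3-ES or Control libraries or Zbtb18-ES replicate 3 left out (adjusted p = 0.0533 to 0.0980), and in Zbtb18-ES with any 1 Control library or Zbtb18-ES replicate 2 or 3 left out (adjusted p = 0.0505 to 0.0928). With libraries rescaled to the same sum Sgce was not called in Foxj3-ES (log2 fold change 0.64, adjusted p = 0.130) or in Zbtb18-ES (0.93, adjusted p = 0.0524). The Foxj3-ES call also ended without a filter (adjusted p = 0.0549) and without the trend of the spread (adjusted p = 0.0528), and the Zbtb18-ES call with only the 2 groups in the fit (adjusted p = 0.0562).

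Slc38a4 was the 1 imprinted gene called between the lines. This amino acid transporter, encoded at chr15:96994820-97055956 (-), is paternally expressed in the placenta, and its imprint is known to rest on a histone mark. It was at 168, 148 and 175 UQRPKM in Zbtb18-ES, against 527, 465 and 600 in Foxj3-ES and 368, 463 and 404 in Control. The libraries of Zbtb18-ES were all under the lowest of the other 6, with a log2 fold change of -1.33 ± 0.15 (SE, adjusted p = 0.00120) against Control and of -1.69 ± 0.15 (SE, adjusted p = 0.00153) against Foxj3-ES, both from limma. Foxj3-ES lay above Control by 0.36 in log2 without a call (adjusted p = 0.127 in limma). The fall in Zbtb18-ES was called under every alternative and with each library left out, at log2 fold changes of -1.48 to -1.24 against Control and -1.78 to -1.50 against Foxj3-ES.

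Zdbf2 fell in Foxj3-ES and was not called in Zbtb18-ES. This paternally expressed gene at chr1:63273265-63314576 (+) was at 7.81, 11.4 and 5.41 UQRPKM in Foxj3-ES, at 19.4, 19.3 and 28.2 in Zbtb18-ES, and at 25.7, 15.9 and 25.7 in Control. Foxj3-ES lay below Control without overlap (log2 fold change -1.37 ± 0.34 (SE), adjusted p = 0.0267 in limma), and the difference between Zbtb18-ES and Foxj3-ES was not called (1.37, adjusted p = 0.102 in limma). The Foxj3-ES call ended without replicate 1 or 3 of Foxj3-ES or of Control (adjusted p = 0.0676 to 0.0965), and with only the 2 groups in the fit (adjusted p = 0.0536).

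Of the retrogenes, which are intronless copies that gained an imprint, Zrsr1 rose in Zbtb18-ES. This copy of a splicing factor gene, at chr11:22972005-22976496 (+), was at 160, 134 and 152 UQRPKM in Zbtb18-ES, against 74.5, 90.6 and 73.7 in Control (log2 fold change 0.90 ± 0.23 (SE), adjusted p = 0.0306 in limma). The groups did not overlap, and the call ended without replicate 1 or 3 of Control or any 1 of the Zbtb18-ES libraries (adjusted p = 0.0521 to 0.0925), without a filter (adjusted p = 0.0503) and without the trend of the spread (adjusted p = 0.0612). In Foxj3-ES Zrsr1 was at 129, 71.3 and 120 UQRPKM, which overlapped with Control. Zrsr1 lies inside the span of Commd1 on the opposite strand. Here too some reads may have been counted for the other gene, and exons were not compared. Commd1 was at 950, 884 and 867 UQRPKM in Foxj3-ES, at 725, 928 and 698 in Zbtb18-ES, and at 603, 765 and 676 in Control. Foxj3-ES lay above Control without overlap for Commd1, which was not called (log2 fold change 0.41, adjusted p = 0.0903) but was once GC and length were corrected (0.54, adjusted p = 0.0282), both from limma. Mcts2, a copy of Mcts1, lies inside the span of H13 on the same strand, with the same limit on its reads. Mcts2 was at 686, 595 and 303 UQRPKM in Foxj3-ES, at 536, 731 and 545 in Zbtb18-ES, and at 369, 351 and 386 in Control. It was not called (adjusted p = 0.307 in Foxj3-ES and 0.119 for Zbtb18-ES, limma). With only 2 groups in the fit Mcts2 was called in Zbtb18-ES (adjusted p = 0.0357), and without Foxj3-ES replicate 3 it was called in both lines (adjusted p = 0.0231 in Foxj3-ES and 0.0248 for Zbtb18-ES). The genes from which these copies arose, Zrsr2 and Mcts1, were not called in either line.

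The remaining clusters had no call in either line. Peg3, a zinc-finger protein, was at 91.0, 111 and 62.4 UQRPKM in Foxj3-ES, at 59.8, 73.6 and 68.8 in Zbtb18-ES, and at 100.5, 91.2 and 96.3 in Control, and Zbtb18-ES lay below Control without overlap (log2 fold change -0.51, adjusted p = 0.152 in limma). Mest was at 381, 710 and 533 UQRPKM in Foxj3-ES, at 504, 445 and 624 in Zbtb18-ES, and at 585, 586 and 529 in Control, and Copg2, a coat protein subunit that overlaps the end of Mest, ranged from 347 to 494 over the 9 libraries. For Mest the 95% interval of the log2 fold change was -0.58 to 0.37 in Foxj3-ES and -0.60 to 0.35 for Zbtb18-ES. Nnat, a small membrane protein of neurons inside Blcap, was at 251, 262 and 350 UQRPKM in Foxj3-ES, at 164, 159 and 160 in Zbtb18-ES, and at 192, 324 and 174 in Control. Of the Control libraries only replicate 2 overlapped with Foxj3-ES, and without that library Nnat was called in Foxj3-ES (log2 fold change 0.64, adjusted p = 0.0335) and between Zbtb18-ES and Foxj3-ES (-0.82, adjusted p = 0.0374), both from limma. With GC and length corrected Nnat was called higher in Foxj3-ES too (log2 fold change 0.65, adjusted p = 0.0220 in limma). Gnas, the stimulatory G protein subunit, was at 163, 186 and 138 UQRPKM in Foxj3-ES, at 98.6, 122 and 94.8 in Zbtb18-ES, and at 118, 126 and 127 in Control. Inpp5f, a phosphoinositide phosphatase, was at 61.9, 49.0 and 55.3 UQRPKM in Foxj3-ES, at 31.6, 37.5 and 29.3 in Zbtb18-ES, and at 47.7, 46.6 and 47.4 in Control, so that Foxj3-ES lay above and Zbtb18-ES below all Control libraries. Neither difference was called (adjusted p = 0.494 in Foxj3-ES and 0.110 for Zbtb18-ES, limma), and rescaled to the same sum Inpp5f was called lower in Zbtb18-ES (log2 fold change -0.67, adjusted p = 0.0396 in limma). Plagl1, a zinc-finger protein that restrains growth, was at 3.55, 5.88 and 7.23 UQRPKM in Foxj3-ES, at 7.71, 23.2 and 8.03 in Zbtb18-ES, and at 8.17, 12.8 and 7.05 in Control. Impact, an inhibitor of the stress kinase GCN2, was at 169, 265 and 128 UQRPKM in Foxj3-ES, at 247, 148 and 204 in Zbtb18-ES, and at 165, 132 and 173 in Control, and both genes overlapped between the groups. Trappc9 was weak, at 1.91, 2.32 and 2.41 UQRPKM in Foxj3-ES, at 2.76, 2.61 and 3.22 in Zbtb18-ES, and at 3.36, 4.44 and 3.41 in Control. Both lines lay below Control without overlap for Trappc9, and neither difference was called (log2 fold changes -0.55 and -0.29). Of the weaker or less varied genes, H13 ranged from 60.6 to 135 UQRPKM over the 9 libraries, Zim1 from 5.56 to 23.2 and Usp29 from 0.334 to 1.85. Rasgrf1 did not exceed 0.605 UQRPKM and Rtl1 did not exceed 0.227.

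Genes with a part in imprints or in DNA methylation were looked up beside the imprinted genes. The list includes enzymes that lay down or remove methylation, Dnmt3a and Tet1 among them, so not all of it keeps imprints. Of the 23 genes listed, all tested, 1 fell in Foxj3-ES, and 1 rose and 4 fell in Zbtb18-ES. These are 4.3% and 21.7% of the 23 genes, against 14.6% and 11.8% of all tested genes in those lines. The median of their log2 fold changes was -0.11 in Foxj3-ES and -0.16 for Zbtb18-ES. Zfp57, which binds the methylated TGCCGC of control regions, was at 1573, 1625 and 1753 UQRPKM in Zbtb18-ES, against 715, 821 and 803 in Control (log2 fold change 1.08 ± 0.12 (SE), adjusted p = 0.00111 in limma). In Foxj3-ES it was at 949, 924 and 1025 UQRPKM, so that Zbtb18-ES was also higher than Foxj3-ES (log2 difference 0.77 ± 0.12 (SE), adjusted p = 0.0235 in limma). Its partner Trim28, which recruits histone methyltransferases, was at 3772, 6857 and 5153 UQRPKM in Zbtb18-ES, against 9765, 12140 and 10470 in Control (log2 fold change -1.07 ± 0.22 (SE), adjusted p = 0.0154 in limma). Uhrf1, which brings the maintenance methyltransferase to replicated DNA, was at 1026, 995 and 1020 UQRPKM in Zbtb18-ES, against 1321, 2273 and 1385 in Control (log2 fold change -0.67, adjusted p = 0.0496 in limma). This call was close to the threshold, and the highest value, 2273, was that of Control replicate 2, the library in which GC-rich genes stood out. Dnmt3a, a de novo methyltransferase, was at 3.94 ± 0.738 UQRPKM in Zbtb18-ES, against 12 ± 1.96 in Control (SD, n = 3 each, log2 fold change -1.39, adjusted p = 0.0231 in limma). Tet1, which oxidises methylcytosine, fell in both lines, with a log2 fold change of -0.51 (adjusted p = 0.0248) in Foxj3-ES and -0.66 (adjusted p = 0.0124) for Zbtb18-ES, both from limma. Of 25 other genes of the same imprinted regions, 23 were in the table and 16 were tested. Of these Cobl, near Grb10, fell in Foxj3-ES, and Dio3 fell and Tspan32, next to Cd81, rose in Zbtb18-ES, which are 6.2% and 12.5% of the 16. The calls of these lists were not followed under the alternatives or with libraries left out, unlike those of the imprinted genes.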

How the data were processed

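RNA-seq values of 9 libraries, 3 each of Foxj3-ES, Zbtb18-ES and Control, were used, with every column assigned by its label. The authors deposited RPKM scaled to upper quartiles (UQRPKM) for 44788 genes. The submitters' processing notes list mm10 and DESeq with no version, and how reads were aligned and counted, with or without strand, is not given in the sources used here. As these are not counts, no count test was run, and no exact permutation test of single genes either, since 3 libraries against 3 cannot pass the threshold. Read numbers were estimated from the most frequent low step in genes with 1 transcript, and intervals on depth were not possible. No pair of libraries held identical values.

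The values were transformed to log2(UQRPKM + 1) without further scaling. All 9 libraries entered 1 model in limma 3.58.1 (R 4.3.3), whose prior spread followed the mean, with Benjamini-Hochberg adjustment across the 22268 genes. Every adjusted p in the text is from limma, and the code was tested on simulated data. Symbols were looked up in GENCODE M21 (30996 directly and 1246 by older symbols), and promoters are from RefSeq (GRCm38.p6). The rule for naming was that genes called in either line, and the best known RNA of each cluster, have their value in every library. Further genes given in full were chosen after their values were seen. The imprinted genes, the other lists and the tests were chosen with earlier results of these data known. Other pseudocounts, filters and scalings, fits of 2 groups, fits without the trend, a replicate block, GC and length corrected together, a 2-fold limit, and leaving out each library were also run. Their results were read for the imprinted genes only, not for the other lists, to which Zfp57, Thy1, Dio3 and Frat1 belong. Python 3.11.15, pandas 2.3.3, numpy 2.4.6 and matplotlib 3.10.9 made the tables and plots.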

Additional observations from a re-analysis of the deposited data

Results flagged for a closer look

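Slc38a4 differed between the lines in limma's test of Zbtb18-ES against Foxj3-ES, with a log2 difference of -1.69 (adjusted p = 0.00153), and it was lower in 3 of 3 Zbtb18-ES libraries than in any Foxj3-ES library. Zfp57, a guardian of imprints, differed by 0.77 in the same test (adjusted p = 0.0235), and Thy1, looked up as a fibroblast marker, by -1.28 (adjusted p = 0.0372). Thy1 was at 51.8, 55.2 and 77.5 UQRPKM in Zbtb18-ES, against 126, 126 and 207 in Foxj3-ES.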

How the results depend on the processing

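No imprinted gene that was called changed its direction under any alternative, and the cause of the changes in count below was not tested. In Foxj3-ES against Control, 8 genes were called, and 5 with a replicate block, where Zdbf2, Sgce and Magel2 were not called (adjusted p = 0.0513, 0.0573 and 0.0772 in limma). With GC and length corrected the count was 12 for Foxj3-ES and 10 for Zbtb18-ES, and with libraries rescaled to the same sum it was 9 for Foxj3-ES and 12 for Zbtb18-ES. The count in Zbtb18-ES against Control was 11 with and without the block. The numbers did not pair the libraries, since the deviations of libraries with the same number correlated at -0.052 to 0.082. Between Zbtb18-ES and Foxj3-ES, where Slc38a4 alone was called, the count was 2 without the trend of the spread and 2 with GC and length corrected, with Dlk1 as the added gene in each (adjusted p = 0.0499 and 0.0474 in limma). With 1 library left out, the counts were 4 to 8 for Foxj3-ES, 2 to 12 for Zbtb18-ES and 1 to 2 between the lines. Of the 20 calls, the 7 that held under every alternative and with each library left out were H19, Peg12, Ascl2 and Tssc4 in Foxj3-ES, Dlk1 and Slc38a4 in Zbtb18-ES, and Slc38a4 between the lines. Of these, Peg12 in Foxj3-ES and Dlk1 in Zbtb18-ES rest on low values of few reads. Rescaling to the same sum gave a median over all genes of -0.35 for Foxj3-ES and -0.16 for Zbtb18-ES, and it changed the sign of 4 uncalled imprinted genes in each. With 3 libraries a group, and reads too few for Magel2, Rtl1 or Airn, small differences of weakly expressed genes could not be seen.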
